A study of Mus musculus with 37 samples.

Results

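Cdx1, Cdx2 and Cdx4 were followed in the raw read counts of mouse tailbuds. They are the 3 Cdx genes among 35542 genes of the counts table and were chosen by name, though with earlier results of these data known. The tailbud, the growth zone at the rear of the embryo, was profiled by poly(A) RNA-seq in 37 embryos of 6 to 11 somites, 1 library per embryo. All embryos were C57BL/6 by Cast F1 crosses in the MMTV-Cre model. The 21 Smchd1 wt embryos, genotype Smchd1[fl/+], came from mothers with an intact floxed Smchd1, and the 16 Smchd1 matΔ embryos, genotype Smchd1[del/+], came from oocytes in which Smchd1, a gene whose product helps to keep target genes silent through chromatin, had been deleted. The matΔ embryos thus lacked the oocyte supply and the maternal copy but kept an intact paternal allele. Genotype and somite number made 12 groups of 2 to 4 embryos.

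The Cdx genes, relatives of Drosophila caudal, encode homeodomain transcription factors of the posterior embryo. Wnt, FGF and retinoic acid signals act upstream of them, and their proteins bind near Hox genes and activate central, or trunk, Hox genes while the axis extends. Loss of Cdx genes shifts vertebral identity and, when several are lost, stops axial growth, and Cdx2 also acts in trophoblast and in the intestinal endoderm.

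Promoter windows from RefSeq (GRCm38.p6, 250 bases before to 50 after the start) were matched for Cdx2, Cdx4 and 21 of 35 expressed Hox genes. They were searched on both strands for TTTATG and TTTATT, letters bound by Cdx proteins, and for CTTTGA, letters bound by the Wnt effectors Tcf and Lef. The Cdx2 and Cdx4 windows are shown as the members' own, the Hoxa7 and Hoxb8 windows because these genes varied with Cdx4 and hold Cdx letters, and the Hoxd8 window because this gene ran most against Cdx1. Capitals mark the motifs, and bases covered by an annotated exon were left out.
Cdx2, chr5:147307271-147307499, minus strand: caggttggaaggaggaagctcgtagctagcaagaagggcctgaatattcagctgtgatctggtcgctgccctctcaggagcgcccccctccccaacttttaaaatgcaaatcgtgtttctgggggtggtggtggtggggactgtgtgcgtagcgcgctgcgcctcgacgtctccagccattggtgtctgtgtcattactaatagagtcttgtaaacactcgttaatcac
Cdx4, chrX:103321148-103321397, plus strand: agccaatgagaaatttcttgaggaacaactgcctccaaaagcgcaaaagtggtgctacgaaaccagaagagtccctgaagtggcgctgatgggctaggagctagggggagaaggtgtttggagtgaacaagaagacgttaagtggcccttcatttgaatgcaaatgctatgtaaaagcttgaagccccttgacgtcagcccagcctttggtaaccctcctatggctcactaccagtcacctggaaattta
Hoxa7, chr6:52218712-52218823, minus strand: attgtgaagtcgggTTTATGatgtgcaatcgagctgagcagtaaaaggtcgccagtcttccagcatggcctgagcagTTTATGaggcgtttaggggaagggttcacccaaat
Hoxb8, chr11:96281655-96281904, plus strand: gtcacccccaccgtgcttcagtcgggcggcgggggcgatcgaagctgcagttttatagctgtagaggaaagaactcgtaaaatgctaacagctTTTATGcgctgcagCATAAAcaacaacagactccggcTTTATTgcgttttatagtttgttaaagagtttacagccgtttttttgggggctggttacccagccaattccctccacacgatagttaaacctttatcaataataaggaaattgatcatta
Hoxd8, chr2:74704365-74704614, plus strand: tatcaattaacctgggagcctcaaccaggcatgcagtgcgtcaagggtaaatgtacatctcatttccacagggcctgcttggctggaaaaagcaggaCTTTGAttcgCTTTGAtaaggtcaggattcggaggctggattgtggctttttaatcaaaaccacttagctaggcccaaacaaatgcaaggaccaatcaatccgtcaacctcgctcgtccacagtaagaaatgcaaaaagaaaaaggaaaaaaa
None of the motifs was found in the windows of Cdx2 and Cdx4. Of the 21 Hox genes with a window, 5 held TTTATG, against 11.9% of all 32851 promoter windows, and 5 held TTTATT, against 19.6%. Either Cdx motif was found for 7 Hox genes, against 27.6% of all windows, and CTTTGA for 3, against 16%. These are matches of letters and describe the windows only. The Hoxa7 and Hoxb8 windows were chosen on their values, so they cannot show whether motifs go with variation.

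In GRCm38, Cdx1 (ENSMUSG00000024619) lies on chromosome 18 at 61018862 to 61036199 on the minus strand. Cdx2 (ENSMUSG00000029646) lies on chromosome 5 at 147300805 to 147307270 on the minus strand. Cdx4 (ENSMUSG00000031326) lies on chromosome X at 103321398 to 103330592 on the plus strand, so it is the X-linked member. Each gene had 1 annotated transcript of 3 exons, and no other annotated gene overlapped any of them.

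The libraries held 916444 to 80579115 counts (median 12845991), and the 2 shallowest, matΔ embryo 3 at 6 somites and wt embryo 2 at 7 somites, held 916444 and 3061180. The smallest count of a Cdx gene in any library was 103. Smchd1 was 149 ± 22.2 CPM (counts per 1e6 counts, SD, n = 21) in wt and 89.0 ± 13.3 (n = 16) in matΔ embryos, and it fell by 0.74 on the log2 scale (SE 0.074, adjusted p = 1.27e-07, edgeR quasi-likelihood test with Benjamini-Hochberg adjustment over all genes). All 10 tailbud markers were detected in every embryo, among them T, a mesoderm regulator (102 to 360 CPM), and Msgn1, a presomitic mesoderm factor (14.5 to 75.9 CPM). Markers of neighbouring tissues were present as well. The 9 visceral endoderm markers summed to 13.6 to 4660 CPM, the 7 primitive erythroid markers to 9.98 to 4210 CPM and the 12 gut and node endoderm markers to 383 to 1130 CPM. The wt embryo 1 at 10 somites stood apart, with a tailbud sum of 480 CPM against 950 to 990 in the others of its group and a gut and node endoderm sum of 926 against 464 to 545. In the matΔ embryos 1 and 2 at 6 somites, 2.77% and 1.82% of counts came from a ribosomal RNA locus, above every other library, and embryo 1 had the highest gut and node endoderm sum (1130 CPM). In bulk tissue, fewer expressing cells and less RNA per cell cannot be told apart.

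Per length of transcript, Cdx4 was the most abundant and Cdx1 the least abundant Cdx gene in every embryo. Mean levels were 329 ± 59.5 RPKM (reads per kilobase of transcript and 1e6 counts, SD, n = 37) for Cdx4, 156 ± 20.4 for Cdx2 and 53.7 ± 31.7 for Cdx1. Cdx4 exceeded Cdx2 in 37 of 37 embryos, with a median ratio of 2.09 (1.19 to 2.89), and Cdx2 exceeded Cdx1 in 37 of 37, with a median ratio of 3.27 (1.13 to 8.67). The gap to Cdx1 was not fixed. The median ratio of Cdx4 to Cdx1 was 4.29 at 6 somites (1.35 to 5.64, n = 8) and 16.4 at 11 somites (11.4 to 23.9, n = 5), while that of Cdx4 to Cdx2 was 2.0 and 2.31. Cdx1 thus fell away from the other two with stage, while Cdx4 and Cdx2 kept their distance.

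Cdx1 fell steeply as somites were added, in both genotypes. At 6 somites it was 126, 150, 116 and 131 CPM in the 4 wt embryos and 288, 164, 114 and 163 CPM in the 4 matΔ embryos. At 7 somites it was 111, 84.0, 98.6 and 117 CPM in wt and 144, 127 and 205 CPM in matΔ embryos. At 8 somites it was 85.9, 63.4 and 71.5 CPM in wt and 92.5 and 128 CPM in matΔ embryos. Up to here the matΔ embryos ran high, apart from the third at 6 somites, which was the shallowest library of all. At 9 somites Cdx1 was 114, 45.3 and 44.0 CPM in wt and 99.0 and 35.4 CPM in matΔ embryos, so that 1 embryo of each genotype kept a level of younger tailbuds. These same 2 embryos had visceral endoderm sums of 1170 and 2000 CPM, against 35.7 to 166 CPM in the other 9 somite embryos, and the part of this in the result was not tested. At 10 somites it was 40.6, 49.9, 76.5 and 44.4 CPM in wt and 57.1, 38.8 and 62.1 CPM in matΔ embryos. At 11 somites it was 31.1, 41.2 and 38.5 CPM in wt and 47.2 and 31.7 CPM in matΔ embryos, below every embryo of 6 to 8 somites in either genotype.

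**Figure D1:**
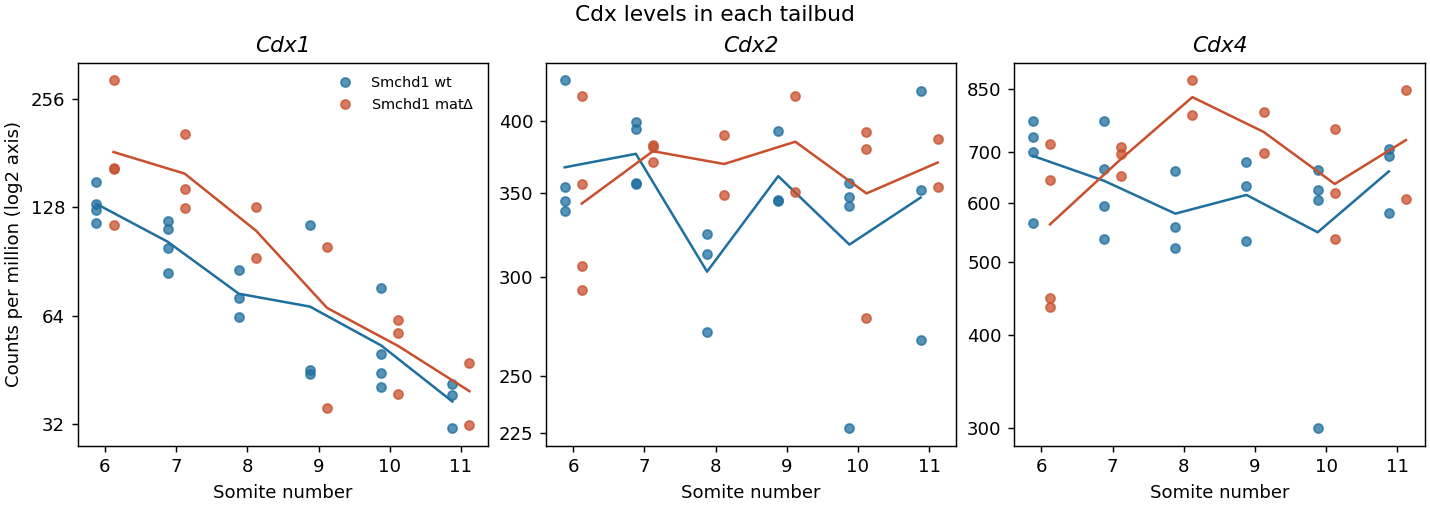
CPM (log2 axis) of Cdx1, Cdx2 and Cdx4 against somite number, 1 point per embryo, with lines through the mean of each genotype at each stage (wt blue, matΔ red). Cdx1 runs down from 114 to 288 CPM at 6 somites to 31.1 to 47.2 CPM at 11 somites, while Cdx2 and Cdx4 stay level, with 1 low wt embryo at 10 somites in both.

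Fitted with sex as a covariate, Cdx1 fell by 0.34 per somite on the log2 scale in wt embryos (SE 0.041, adjusted p = 2.66e-05, edgeR quasi-likelihood test) and by 0.46 in matΔ embryos (SE 0.061, adjusted p = 0.000231). Among all 37 embryos, with genotype as a further term, it fell by 0.40 (SE 0.038, adjusted p = 5.36e-10) and ranked 19 by p among 14733 genes. The share of genes past the adjusted threshold of 0.05 was 6.61% in wt, 2.95% in matΔ and 19.3% in all embryos, so a change with somite number was common among genes. The 2 slopes differed by -0.13 per somite, matΔ minus wt (SE 0.073, adjusted p = 1), in a fit of that difference in which 0.0% of genes passed. Taken stage by stage against 6 somites, Cdx1 stood at -0.25, -0.78, -1.12, -1.5 and -1.98 on the log2 scale at 7, 8, 9, 10 and 11 somites (adjusted p = 8.33e-07 for any difference among stages). With the gut and node endoderm marker level as a covariate the wt slope was -0.26 (adjusted p = 0.0235).

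Cdx2 and Cdx4 showed no change with somite number that passed the test. Cdx2 was 339, 345, 431 and 354 CPM in wt embryos at 6 somites and 267, 423 and 352 CPM at 11 somites, so that the ends of the series overlapped. In matΔ embryos it was 419, 306, 293 and 356 CPM at 6 somites and 387 and 354 CPM at 11 somites. Its slope was -0.03 per somite in wt (SE 0.025, adjusted p = 0.491) and 0.02 in matΔ embryos (SE 0.024, adjusted p = 0.802). Cdx4 was 564, 771, 701 and 734 CPM in wt embryos at 6 somites and 581, 693 and 707 CPM at 11 somites. In matΔ embryos it was 436, 447, 718 and 644 CPM at 6 somites and 606 and 848 CPM at 11 somites, and the 2 low values at 6 somites were those of the libraries rich in ribosomal RNA. Its slope was -0.04 in wt (SE 0.031, adjusted p = 0.555) and 0.06 in matΔ embryos (SE 0.036, adjusted p = 0.393), and the slopes differed by 0.10 (SE 0.048, adjusted p = 1). Without that pair the matΔ slope was 0.01 and the difference of slopes 0.04. The wt embryo 1 at 10 somites was the lowest of all 37 for both genes, at 227 CPM for Cdx2 and 300.0 CPM for Cdx4.

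The signals upstream of the Cdx genes moved in both directions over the same stages. Of 21 listed ligands, receptors, effectors and regulators, 4 rose and 6 fell with somite number in all embryos, in the fit in which 19.3% of all genes changed, with a list median of -0.006 per somite against -0.002 over all genes tested. Gdf11, a ligand that promotes the trunk to tail transition, rose by 0.24 per somite (adjusted p = 1.32e-08). Cyp26a1, which degrades retinoic acid, rose by 0.25 (adjusted p = 8.45e-08), and Wnt5a, a non-canonical Wnt ligand, rose by 0.16 (adjusted p = 5.95e-06). Wnt8a, a canonical Wnt ligand, fell by 0.38 (adjusted p = 2.03e-06), a slope close to that of Cdx1. Of 16 axial progenitor and presomitic mesoderm factors, 14 were tested, 2 rose and 3 fell. The receptor gene Epha1 fell by 0.22 (adjusted p = 3.48e-10) and the progenitor factor Nkx1-2 by 0.12 (adjusted p = 0.000306), while the homeobox gene Mnx1 rose by 0.16 (adjusted p = 0.00076) and the Notch ligand gene Dll1 by 0.12 (adjusted p = 0.00979). Of 9 hindgut and haematopoietic genes, 7 were tested, 3 rose and 2 fell. Among them were the blood progenitor regulators Lmo2 (up by 0.15, adjusted p = 9.29e-07) and Tal1 (up by 0.20, adjusted p = 0.000396). The endoderm factor Foxa1 rose by 0.15 (adjusted p = 0.00651), and Vil1, of the intestinal brush border, fell by 0.50 (adjusted p = 0.0105). Markers moved with stage too: 4 of 9 visceral endoderm markers fell, 5 of 7 primitive erythroid markers rose, and of 11 tested gut and node endoderm markers 2 rose and 7 fell. Of 4 tested primordial germ cell markers 1 fell and 0 rose, with a list median of -0.046 per somite. The 1 that fell was Pou5f1, a pluripotency and germ cell factor (down by 0.57, adjusted p = 5.18e-10).

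Many trunk and posterior Hox genes rose over the stages at which Cdx1 fell. Of 34 Hox genes tested, 15 rose and 3 fell with somite number in all embryos, against the 19.3% of all genes that changed. By class, 2 of 12 Hox1-4 genes rose and 1 fell, 9 of 15 Hox5-9 genes rose and 2 fell, and 4 of 7 Hox10-13 genes rose. The smallest adjusted p-values belonged to the trunk genes Hoxa9 (up by 0.32 per somite, adjusted p = 3.95e-11), Hoxc9 (up by 0.40, adjusted p = 5.57e-11) and Hoxd8 (up by 0.35, adjusted p = 7.33e-11).

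Between genotypes, Cdx1 was higher in matΔ embryos at 6 to 8 somites and not at 9 to 11 somites, but the difference did not pass the adjusted threshold in the main test. At 6 to 8 somites it was 158 ± 58.5 CPM (SD, n = 9) in matΔ and 105 ± 26.7 CPM (n = 11) in wt embryos, and 8 of 9 matΔ embryos lay above the wt mean of their stage. With stage and sex in the fit the log2 difference was 0.51 (SE 0.12, adjusted p = 0.308, edgeR quasi-likelihood test), rank 21 of 14495 genes, of which 0.0069% passed the adjusted threshold and 8.13% an unadjusted p of 0.05. DESeq2 gave the same size (0.50) with an adjusted p of 0.0418, and edgeR with no filter on low counts gave an adjusted p of 0.00203. The fits of single stages had no covariate. In them the difference was 0.51 at 6 somites (SE 0.2, rank 347 by p), 0.61 at 7 somites (SE 0.16, rank 27), or 0.38 there without matΔ embryo 3, and 0.58 at 8 somites (SE 0.18, rank 68), or 0.33 there without matΔ embryo 2. No adjusted p passed at any of the 6 stages (0.862, 0.962 and 0.999 at 6, 7 and 8 somites), where 0.0% of genes did, and 5.54%, 4.83% and 2.81% of genes had an unadjusted p under 0.05 at these 3 stages (174, 84 and 1327 genes at 9, 10 and 11 somites). Genotypes did not overlap in Cdx1 at 7 and 8 somites, as held for 5.81% and 15.8% of all genes tested in either direction, and they overlapped at 6 somites, where 3.43% did not. Without the 2 matΔ embryos rich in ribosomal RNA the difference at 6 somites was 0.13 (adjusted p = 1), and without embryo 1 of the pair alone it was 0.20, so the value at that stage rested on these embryos. Without both, the difference over 6 to 8 somites was 0.39 (adjusted p = 0.408). In these stages the visceral endoderm markers were lower in matΔ embryos for 9 of 9 genes (median log2 difference -0.599), 3 with an unadjusted p under 0.05. The tailbud markers were higher for 9 of 10 (median 0.248), 4 with such a p. Of 8 formed somite markers, 3 could be tested and all 3 had a positive log2 difference with an unadjusted p under 0.05 (median 1.031), none past the adjusted threshold. The 8 somite markers summed to 16 to 84.0 CPM in matΔ and 12.5 to 19.8 CPM in wt embryos, and Pax1 was at 0 in every embryo. At 9 to 11 somites 2 of 4 tested were positive (median 0.041), and between the windows the median difference was -1.055. The part of these markers in the Cdx1 value was not tested.

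At 9 to 11 somites Cdx1 was 53.0 ± 23.1 CPM (n = 7) in matΔ and 52.6 ± 24.8 CPM (n = 10) in wt embryos, a log2 difference of 0.0021 (SE 0.22, adjusted p = 1), in a fit in which 0.00671% of genes passed the adjusted and 1.75% the unadjusted threshold. The genotype effects of the 2 windows differed by -0.55, late minus early (SE 0.26, adjusted p = 1), where 0.0% of genes passed after adjustment and 3.36% had a p under 0.05. Without wt embryo 1 at 9 somites, the high one, this difference was -0.26. Over all stages Cdx1 was 0.31 higher in matΔ embryos (SE 0.14, adjusted p = 0.864), in a fit in which 0.0136% of genes passed and 5.66% had a p under 0.05, and with the gut and node endoderm marker level as a covariate it was 0.23 higher.

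The genotype difference of Cdx4 had no stable direction at 6 to 8 somites and was positive at 9 to 11 somites, and it did not pass the test. At 6 somites its log2 difference was -0.31 (SE 0.16, adjusted p = 0.862), and -0.03 without the pair rich in ribosomal RNA. At 8 somites it was 522, 662 and 556 CPM in wt and 786 and 873 CPM in matΔ embryos, which did not overlap, as held for 15.8% of genes, a log2 difference of 0.52 (SE 0.16, adjusted p = 0.999). At 9 somites it was 533, 679 and 631 CPM in wt and 699 and 792 CPM in matΔ embryos, which did not overlap either, as held for 12.4% of genes at that stage. Every matΔ embryo at 8 and 9 somites was female, while wt held both sexes, and the fits of single stages had no sex term. At 10 and 11 somites the genotypes overlapped, while 1.73% and 27.1% of genes did not, and without wt embryo 1 the difference at 10 somites was 0.01 in place of 0.22. Over 6 to 8 somites the difference was 0.03 (SE 0.12) and did not pass the test. Over 9 to 11 somites, at 693 ± 112 CPM (n = 7) against 602 ± 119 CPM (n = 10), it was 0.28 (SE 0.089, adjusted p = 1, rank 30 by p), and with no sex term it was 0.21. At these stages 9 of 9 visceral endoderm markers had a positive log2 difference (median 1.334), 0 of them with an unadjusted p under 0.05. Their sum had a median of 170 CPM in matΔ and 196 CPM in wt embryos, with highest values of 3550 and 3640 CPM. The part of these markers in the Cdx4 value was not tested.

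Cdx2 differed little. It was 363 ± 41.1 CPM (n = 16) in matΔ and 347 ± 49.3 CPM (n = 21) in wt embryos over all stages, a log2 difference of 0.07 (SE 0.06, adjusted p = 0.902). The single stage at which the genotypes did not overlap was 8 somites, where 15.8% of all genes did not, at 313, 271 and 325 CPM in wt and 390 and 349 CPM in matΔ embryos (log2 difference 0.29, SE 0.15, adjusted p = 0.999).

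**Figure D2:**
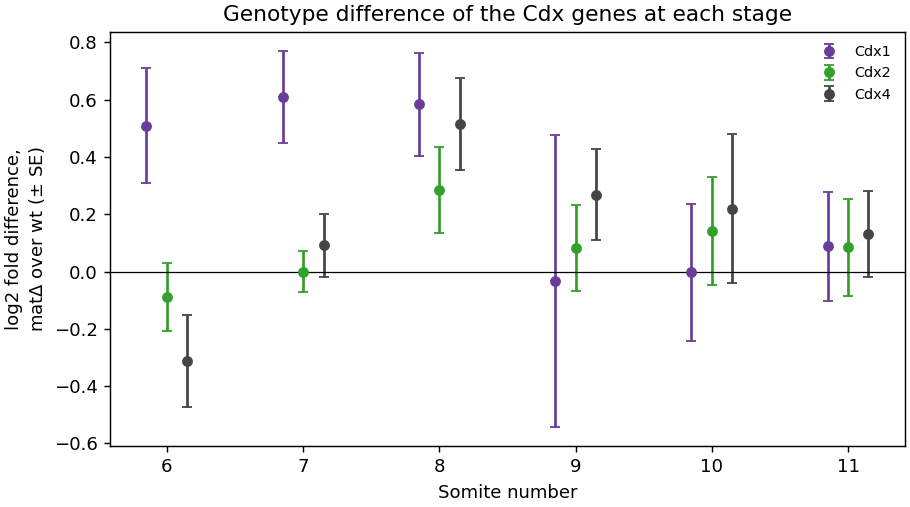
Log2 fold difference of matΔ over wt embryos from the edgeR fit of each stage, with bars of 1 standard error, for Cdx1, Cdx2 and Cdx4 against somite number. These fits had no sex term. Cdx1 sits between 0.51 and 0.61 at 6, 7 and 8 somites and near 0 from 9 somites, and Cdx4 passes from -0.31 at 6 somites to 0.52 at 8 somites.

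None of the 21 upstream signals, 14 tested progenitor and mesoderm factors or 7 tested hindgut and haematopoietic genes passed the adjusted threshold between genotypes in the main edgeR fits over all stages or within a window, sex or stage, and these lists were not counted under DESeq2 or with no filter. At 6 to 8 somites 18 of 21 upstream signals had a positive log2 difference (median 0.091, against -0.006 over all genes) and 14 of 14 progenitor and mesoderm factors did (median 0.229). Stage by stage these counts were 10 of 21 and 9 of 14 at 6 somites and 16 of 21 and 11 of 14 at 7 somites. They were 19 of 21 and 14 of 14 at 8 somites, where matΔ had 2 embryos. Members of a list can vary together in bulk tissue, so such counts are not independent. At 9 to 11 somites the counts were 14 of 21 and 9 of 14. Fgf8, the FGF ligand of the tailbud, had a log2 difference of 0.32 at 6 to 8 somites (adjusted p = 0.569).

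Cdx4 being X-linked, levels were also compared by sex, with the limit that every 6 somite embryo and every matΔ embryo at 8 and 9 somites was female. Cdx4 was 671 ± 111 CPM (n = 24) in females and 600.0 ± 117 CPM (n = 13) in males. With stage and genotype in the fit it was 0.24 lower in males on the log2 scale (-0.24, SE 0.1, adjusted p = 1, rank 223), where 0.217% of genes passed the adjusted threshold and 3.26% had a p under 0.05. Without wt embryo 1 at 10 somites, a male, the value was -0.18. The autosomal Cdx2 had a value of -0.14 (SE 0.072) and Cdx1 of -0.07 (SE 0.16), both with an adjusted p of 1. Between genotypes Cdx4 had a log2 difference of 0.07 in females (SE 0.096, adjusted p = 0.913) and 0.30 in males (SE 0.15, adjusted p = 0.696), which was 0.06 without wt embryo 1 at 10 somites, and the difference between these effects was 0.15 (SE 0.19, adjusted p = 0.999). Cdx1 had 0.42 in females (SE 0.15, adjusted p = 0.856), or 0.30 without the pair rich in ribosomal RNA, and 0.43 in males (SE 0.14, adjusted p = 0.666). In the fit of females 0.00684% of genes passed the adjusted threshold and 5.49% had a p under 0.05, in males 0.0% and 7.25%, and for the difference between sexes 0.0% passed, with 336 genes at an unadjusted p under 0.05.

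The Cdx genes were then set against the Hox genes embryo by embryo. Hox genes were averaged on the log2 CPM scale in 3 classes, the anterior Hox1-4 (12 expressed genes), the trunk Hox5-9 (15) and the posterior Hox10-13 (8). Over all 37 embryos Cdx1 ran against the trunk class, with a Pearson r of -0.74 and a Spearman rho of -0.75 (adjusted p = 0.00018 and 4.5e-05 over the 9 pairs, permutation test, 100000 permutations, two-sided). It ran against the posterior class with r = -0.59 and rho = -0.7 (adjusted p = 0.00018 and 4.5e-05). Without the 2 embryos farthest from the median Cdx1 level these r were -0.74 and -0.6. These pooled values hold the shared course of somite number. With the mean of each genotype and stage group taken away, the r of Cdx1 was -0.09 with the trunk class and -0.14 with the posterior class (adjusted p = 0.644 and 0.604, permutation within groups). Within groups no such relation could thus be detected for the class means. Gene by gene, 3 of 15 trunk genes ran against Cdx1 past the threshold within groups: Hoxd8 (r = -0.62), Hoxc6 (-0.54) and Hoxa9 (-0.48). With the endoderm marker level also taken away, an alternative chosen after seeing the data, these r were -0.52, -0.4 and -0.33. An r of 0.5 or more in size with Cdx1 was found for 2 of 15 trunk genes (13.3%) and for 8.74% of 14732 tested genes. In wt embryos alone the pooled r with the trunk class was -0.75 and in matΔ embryos -0.74.

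**Figure D3:**
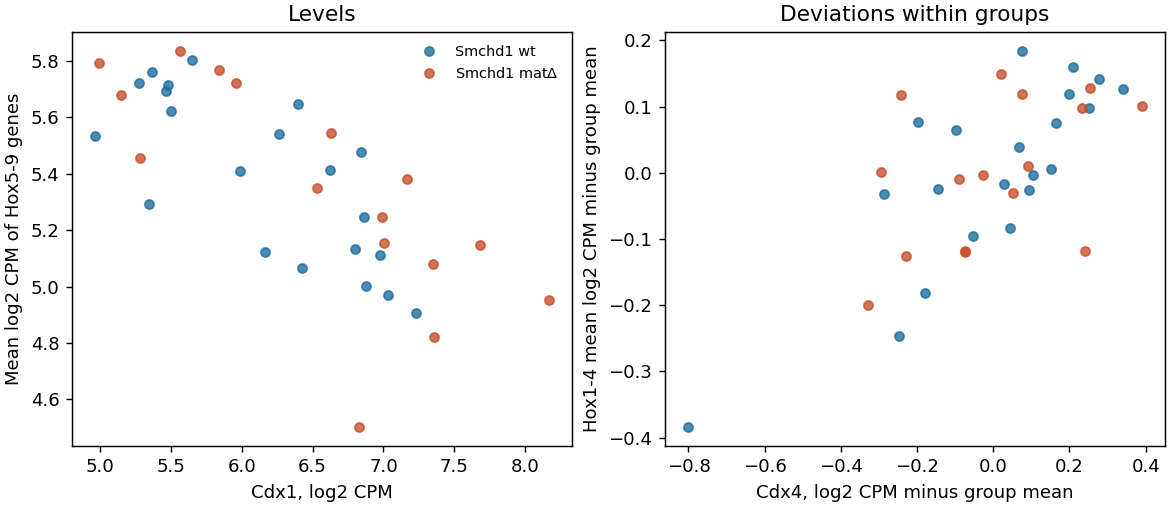
Left, mean log2 CPM of the 15 expressed Hox5-9 genes against log2 CPM of Cdx1, and right, the deviation of the Hox1-4 mean from its group mean against that of Cdx4, 1 point per embryo (wt blue, matΔ red). The left cloud runs down with r = -0.74, and the right one runs up with r = 0.69, with 1 wt embryo of 10 somites far below the rest.

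Within groups, Cdx4 varied with the anterior class. With group means taken away its r with Hox1-4 was 0.69 and its rho 0.61 over 37 embryos (adjusted p = 0.016 and 0.0135, permutation within groups). Without the 2 embryos farthest from the median Cdx4 level r was 0.43, and without wt embryo 1 at 10 somites alone it was 0.51 (adjusted p = 0.139), so the call rested on that embryo. With the endoderm marker level also taken away r was 0.61 (adjusted p = 0.0529), and the deviations of Cdx4 and of that marker level, a mean of log2 values in which every marker weighs alike, had an r of -0.51. With the summed CPM of the same markers, in which abundant ones weigh most, the r of Cdx4 was -0.83. In wt embryos alone the r of Cdx4 with Hox1-4 was 0.81 and the rho 0.74 (n = 21, adjusted p = 0.0331 and 0.0258), and in matΔ embryos both were 0.46 (n = 16, adjusted p = 0.564 and 0.413). Without the 2 farthest embryos of each genotype these r were 0.55 and 0.18, and the difference between the genotypes was not tested. Cdx2 had r = 0.48 and rho = 0.43 with the trunk class (adjusted p = 0.0603 and 0.117) and r = 0.45 and rho = 0.31 with the anterior class (adjusted p = 0.18 and 0.335), where r became 0.31 and 0.03 without the 2 farthest embryos. Cdx4 had r = 0.31 with the trunk class (adjusted p = 0.329, permutation within groups), which was 0.10 without wt embryo 1 at 10 somites. Between the Cdx genes, Cdx1 and Cdx2 deviated together with r = 0.56 and rho = 0.56 (adjusted p = 0.00225 and 0.00549 over 3 pairs, permutation within groups), and r was 0.49 without the 2 farthest embryos. The other two pairs had r = 0.35 for Cdx2 with Cdx4 (adjusted p = 0.251) and -0.17 for Cdx1 with Cdx4 (adjusted p = 0.407).

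Gene by gene, 15 of 105 Cdx and Hox pairs passed after adjustment over all 105 (permutation within groups). Cdx2 varied most with Hoxa3 (r = 0.81, adjusted p = 0.00472) and Hoxb2 (r = 0.71, adjusted p = 0.00525), and its lowest values were -0.2 with Hoxb4 and -0.12 with Hoxc5, neither past the threshold. Cdx4 varied most with the trunk gene Hoxa7 (r = 0.74, adjusted p = 0.00472) and with Hoxc4 (r = 0.73, adjusted p = 0.00735), and ran most against the posterior genes Hoxa11 (r = -0.53, adjusted p = 0.0215) and Hoxc11 (r = -0.4, adjusted p = 0.109). Cdx1 varied most with Hoxb2 (r = 0.61, adjusted p = 0.00777) and Hoxb6 (r = 0.48, adjusted p = 0.0709), and ran most against Hoxd8 (r = -0.62, adjusted p = 0.0215) and Hoxc6 (r = -0.54, adjusted p = 0.037). Of the 7 Hox genes past the threshold with Cdx4, 5 were of the trunk class and positive: Hoxa7, Hoxc8, Hoxb9, Hoxb8 and Hoxc6. The share of all genes that would pass this permutation test was not computed. By size, 5 of 15 trunk genes (33.3%) had an r of 0.5 or more with Cdx4 in either direction, against 26.6% of 14732 tested genes. For Hoxb8, whose window above holds 3 Cdx motifs, r was 0.56 (adjusted p = 0.0233). Hoxd4, whose window holds 2 TTTATG and 3 TTTATT, had r = 0.26 with Cdx4 (adjusted p = 0.329). The remaining Hox genes with a Cdx motif, beside Hoxa7, had r = 0.37 (Hoxd3), 0.35 (Hoxa2), 0.0 (Hoxd11) and -0.25 (Hoxa10), none past the threshold. With the endoderm marker level also taken away, an alternative chosen after seeing the data, r with Cdx4 was 0.64 for Hoxa7, 0.6 for Hoxc4 and 0.36 for Hoxb8. It was 0.27 for Hoxc6 and -0.42 for Hoxa11 with Cdx4, and 0.84 for Hoxa3 with Cdx2. Without 2 embryos high in endoderm markers, r with Cdx4 was 0.62 for Hoxa7, 0.64 for Hoxc4, 0.53 for Hoxc8 and 0.48 for Hoxb9. It was then 0.51 for Hoxb8, 0.52 for Hoxc6 and -0.44 for Hoxa11.

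**Figure D4:**
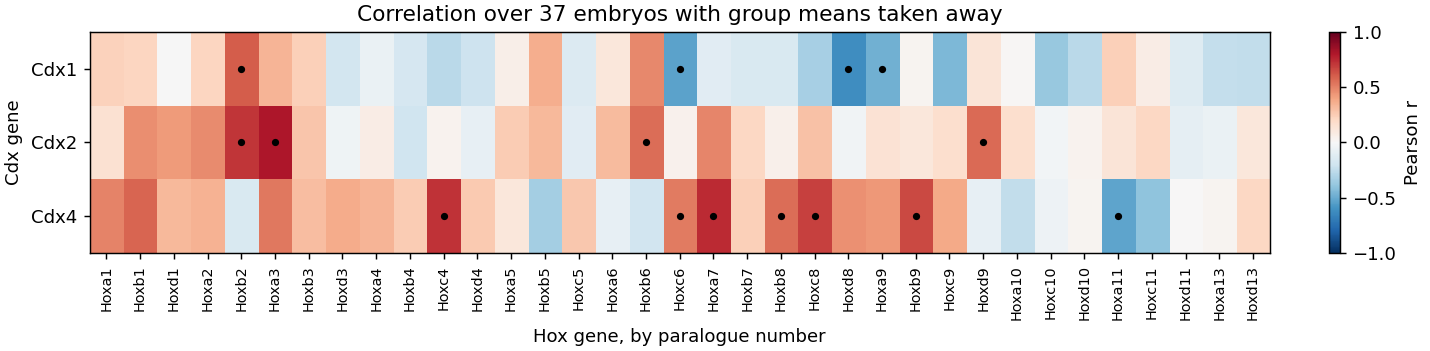
Pearson r over 37 embryos, with group means taken away, of each Cdx gene (rows) with each of 35 expressed Hox genes ordered by paralogue number (columns), from blue (-1) to red (1). Dots mark the 15 pairs past an adjusted p of 0.05, which for Cdx4 lie mostly at Hox5-9 genes and for Cdx2 at Hoxb2, Hoxa3, Hoxb6 and Hoxd9.

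These shares were read against all genes. An r of 0.5 or more in size with Cdx4 was found for 9 of 35 Hox genes (25.7%) and for 26.6% of 14732 tested genes. With Cdx2 it was found for 4 of 35 (11.4%) and 6.54%, and with Cdx1 for 3 of 35 (8.57%) and 8.74%. For Cdx4 and Cdx1 the share among Hox genes was close to that among all genes. Embryos share library composition and depth, and reads of Hoxa3 and of its neighbours can fall in overlapping annotations on both strands, so single values are uncertain.

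The genes whose deviations were most like each Cdx gene are given as a description, over 37 embryos. For Cdx2 they were Fgf8 (r = 0.89), Evx1, a homeobox gene of the primitive streak and tailbud (0.85), Marcksl1 (0.82), Crocc (0.82) and Gm28308 (0.81), a predicted gene that overlaps Hoxa2 to Hoxa6. For Cdx1 they were L3mbtl2, a Polycomb group gene (0.81), Ror2, a Wnt5a receptor gene (0.81), Rab34 (0.78), Letm1 (0.78) and Asphd2 (0.77). For Cdx4 they were E330009J07Rik (0.94), Fam49a (0.9), Gm43126 (0.89), Dcp2 (0.88) and Cbx5, a heterochromatin protein gene (0.87). An r of 0.5 or more in size with Cdx4 was found for 26.6% of all tested genes. The Cdx genes also differed in their r with summed marker levels. All these r include wt embryo 1 at 10 somites, and none is given without it. That embryo was low in Cdx4 and the tailbud sum and high in the gut and node endoderm sum. Deviations of the tailbud sum had r = 0.73 with Cdx2, 0.71 with Cdx4 and 0.17 with Cdx1, and those of the gut and node endoderm sum -0.12, -0.83 and 0.34. The sum of the 21 upstream signals had r = 0.88 with Cdx4, 0.54 with Cdx2 and -0.05 with Cdx1. That of the 5 primordial germ cell markers had r = 0.51 with Cdx1, and 0.83 before group means were taken away. Pou5f1 had the widest range in this last sum, at 2.35 to 97.5 CPM, and no other of its markers exceeded 22.5 CPM.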

How the data were processed

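Tailbud RNA of 37 embryos was sequenced as 1 library each. As the labels and methods state, the authors trimmed reads with Trim Galore 0.4.4, mapped them to GRCm38.p6 with HISAT2 2.0.5 and counted genes in SeqMonk, using a stranded or a non-stranded TruSeq kit. Which kit made which library is not given in the sources used here. The deposited table holds raw counts per gene, and another deposited table gives Hox gene levels as log2 RPKM, computed by the authors and used here as an alternative. A table of the authors' own comparisons was not used.

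Rows of a repeated identifier (49) were dropped and 27 gene names turned into dates were restored. Groups came from the labels. Counts of all genes past filterByExpr (minimum count 10) were fitted with edgeR 4.0.16 (R 4.3.3, TMM, quasi-likelihood test), adjusted over all genes tested, threshold 0.05. Genotypes were compared with stage and sex as terms over all stages and in the windows, and with stage alone within each sex. Fits of a single stage had no covariate. The fit was tested on simulated counts. Log2 CPM used a prior count of 2, and correlations 100000 permutations (scipy 1.17.1, numpy 2.4.6). RPKM used union exon length in the GENCODE annotation of the same build. Alternatives were DESeq2 1.42.0, median-ratio size factors, no filter, a replicate block, each embryo left out, females alone, no sex term, an endoderm covariate, and leaving out doubted libraries. Named genes were the Cdx genes, Smchd1, the 5 genes most like each Cdx gene, the 2 highest and 2 lowest Hox genes for each, the 3 Hox genes with the smallest adjusted p for the slope, and per list the members past the threshold or the 4 with the smallest adjusted p. Fgf8 between genotypes, Hoxb8, Pou5f1, T, Msgn1 and the Hox genes listed by count alone were named after their values were seen. So were the other Hox genes with a Cdx motif. The members and lists were chosen with earlier results of these data known. Depth ran from 916444 to 80579115 counts, and precision is limited by the 2 to 4 embryos of a group. Protein sequences and sequence of the Cdx1 locus were not used here.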

Additional observations from a re-analysis of the deposited data

Results flagged for a closer look

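Of 12 sets of 4 embryos of 1 group and gene, 3 held an embryo far from the others by Dixon's criterion (0.829 for 4 values), where chance gives about 1 in 20. Cdx2 was 431 CPM in wt embryo 3 at 6 somites, with the next at 354 CPM. In wt embryo 1 at 10 somites Cdx2 was 227 CPM, with the next at 342 CPM, and Cdx4 was 300.0 CPM, with the next at 605 CPM. The gaps were 0.837, 0.885 and 0.84 of the range of their groups. The last 2 values came from the library whose gut and node endoderm sum was 926 CPM and whose visceral endoderm sum was 3640 CPM, against 134 to 617 CPM in the others of its group. The part of these markers in the values was not tested.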

How the results depend on the processing

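Of 1839 alternative values of 63 results, 1765 kept direction and side of the threshold, 53 reversed, 19 came to pass it and 2 no longer did, and the causes were not tested. The slopes of Cdx1 passed the threshold in every alternative run. Cdx1 at 6 to 8 somites was 0.50 by DESeq2 and 0.50 with no filter, past the threshold in both, and 0.39 to 0.57 without 1 embryo at a time (adjusted p = 0.111 to 0.704).

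Embryos of the same number in both genotypes had correlations, over genes, of their deviations from group means of -0.292 to 0.651, not all above 0.1. The highest were 0.651 and 0.402 for embryos 1 and 2 at 9 somites and 0.347 for embryos 3 at 10 somites. The deviations of the 2 matΔ embryos at 9 somites mirror each other by construction, so the values of that stage are not independent. Whether some pairs shared more than a number could not be told from these values. In genotype and sex fits over several stages the block was somite and replicate number together, in place of stage. Embryos alone in their block then did not inform the genotype difference. In fits of a single stage and of slopes the block was the replicate number. With the block, the log2 difference at 6 to 8 somites was -0.07 for Cdx2 and -0.17 for Cdx4. In the other block fits the difference was -0.08 for Cdx1 at 9 to 11 somites, 0.09 for Cdx1 (0.42 without the block), -0.07 for Cdx2 and -0.08 for Cdx4 in females, -0.02 for Cdx2 at 7 somites and 0.39 for Cdx1 by sex. The block changed the genes called from 32 to 13 for sex, from 2 to 1 between genotypes over all stages, and from 0 to 11 at 8 somites.

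In females alone Cdx2 was -0.0012 and Cdx4 -0.04 at 6 to 8 somites, and the slopes were 0.0037 for Cdx2 and 0.00046 for Cdx4 in wt and 0.01 for Cdx2 in all embryos. Without the 2 shallow libraries Cdx4 was -0.01 at 6 to 8 somites and Cdx2 -0.02 at 7 somites, where DESeq2 gave -0.0007. With no filter Cdx1 was -0.00047 at 9 to 11 somites. The slope of Cdx4 in all embryos was -0.02 without the pair rich in ribosomal RNA and -0.06 with the endoderm covariate.

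With the endoderm level also taken away (chosen after seeing the data) r was 0.01 for Cdx1 with Hox5-9 and 0.61 for Cdx4 with Hox1-4, no longer past the threshold. With linear stage, genotype and sex taken away in place of group means, r was 0.56 for Cdx2 with Hox1-4, 0.60 for Cdx2 with Hox5-9 and 0.40 for Cdx4 with Hox5-9 (0.31 by group means), all past the threshold. So were Cdx2 with Hox1-4 without the pair rich in ribosomal RNA (0.61), and Cdx2 (0.53) and Cdx4 (0.63) with Hox5-9 without the shallow libraries. Cdx4 with Hox5-9 was 0.21 with a prior count of 0.5, 0.22 with the endoderm level taken away and 0.51 with the deposited log2 RPKM, none past the threshold.

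With 1 embryo left out at a time, where a lone embryo of a group is assumed to vary like the others, values ran as follows. At 6 to 8 somites they were -0.03 to 0.06 for Cdx2 and -0.05 to 0.10 for Cdx4, and at 9 to 11 somites -0.20 to 0.25 for Cdx1. At 7 somites Cdx2 ran from -0.02 to 0.03. At 9 somites Cdx1 ran from -0.95 to 0.58 and Cdx2 from -0.04 to 0.19, and at 10 somites Cdx1 from -0.13 to 0.23. At 11 somites Cdx1 ran from -0.23 to 0.35, Cdx2 from -0.08 to 0.26 and Cdx4 from -0.13 to 0.35. The sex value of Cdx1 ran from -0.31 to 0.01, the genotype by sex value of Cdx4 from -0.01 to 0.24 and its slope in all embryos from -0.01 to 0.01. The window difference of Cdx1 ran from -0.74 to -0.26, and its value at 7 somites from 0.38 to 0.74. The r ran from 0.20 to 0.61 for Cdx2 with Hox1-4, 0.36 to 0.57 with Hox5-9 and -0.0024 to 0.18 with Hox10-13, and from 0.51 to 0.79 for Cdx4 with Hox1-4 and 0.10 to 0.51 with Hox5-9.

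Genes called with somite number were 1036 in wt, against 1556 by DESeq2, 1910 in females and 62 with the endoderm covariate, and 687 to 1971 without 1 embryo. In matΔ embryos they were 478, against 1121 by DESeq2, 301 without the pair rich in ribosomal RNA and 188 in females, and 239 to 615 without 1 embryo. In all embryos they were 2847, against 733 with the endoderm covariate. The difference of slopes gave 0, against 39 with no filter and 540 at an unadjusted p under 0.05. Between genotypes at 6 to 8 somites 1 gene was called, against 37 by DESeq2, 39 with no filter and 0 with the block. With no filter 186 genes were called at 8 somites and 172 at 11 somites, against 0, and DESeq2 called 1 and 14.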
